A study of Brassica oleracea var. italica with 2 samples.

Results

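The signals of 10 family 1 beta-glucosidase genes were compared in whole seedlings of broccoli (Brassica oleracea var. italica, cultivar Elegance). The genes were PYK10, BGLU15, BGLU16, BGLU24, BGLU25, BGLU27, BGLU28, BGLU33, BGLU36 and BGLU40, taken as the probe sets assigned to exactly 1 gene with one of these symbols. Each was represented by 1 probe set. They were 10 of 13350 genes named in this way, on an array of 22810 probe sets. One sample came from asBoEMF2.1 seedlings, which carry an antisense copy of BoEMF2.1 under the 35S promoter, a viral promoter active in most plant tissues. The other came from seedlings with the empty vector pCAMBIA1380. Both had a wild type background and were grown for 11 days at 21 °C, in cycles of 16 h light and 8 h dark. The medium held 0.8% agar and 1.5% sucrose for both. BoEMF2.1 is a broccoli relative of Arabidopsis EMF2, whose product belongs to a Polycomb complex that keeps developmental genes silent. The labels do not say how many seedlings or transgenic lines were pooled.

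With 1 array for each genotype there is no replicate error and no p-value, and precision is limited by the number of arrays. "Higher" and "lower" refer to this pair of arrays only. The probe sets were designed on Arabidopsis genes, and a low signal can come from sequence mismatch as well as from little transcript. Broccoli copies of a gene cannot be told apart with them. Signals are linear MAS5 intensities, which were compared for the same probe set only, apart from summed signals of tissue markers. The floor for a measurable signal was the median of the 22746 non-control probe sets of that array, 302.7 on the asBoEMF2.1 array and 317.6 on the empty-vector array. Ratios are log2 of asBoEMF2.1 over empty-vector signal. Where a signal was at or below the floor on 1 array, it was raised to the floor and the ratio is a bound, given as "at least" or as a bound. Where both were at or below it, no ratio was taken. A probe set over the floor on both arrays is called measured on both, and one over it on 1 array or more is called measured. A ratio of 2-fold or more was counted as a difference.

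Family 1 beta-glucosidases cut glucose from small glucosides. Plants store defence compounds, flavonols, coumarins, lignin precursors and hormones as such glucosides, often in a compartment apart from the enzyme, so that tissue damage brings enzyme and substrate together. In Arabidopsis, PYK10 is the main protein of ER bodies, spindle-shaped compartments of the endoplasmic reticulum in roots and seedlings of the cabbage family, and it acts on indole glucosinolates and on the coumarin glucoside scopolin. The classical myrosinases, which cut aliphatic glucosinolates, belong to the same enzyme family.

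The comparison asked which beta-glucosidase transcripts differed in seedlings with the antisense construct. BGLU27 was at least 5.78-fold higher in asBoEMF2.1 seedlings and BGLU40 was 2.12-fold higher. PYK10 was lower, with a log2 ratio of -0.44, short of 2-fold. Of 9 measured members, 5 had a positive and 4 a negative ratio, and over all measured probe sets 6284 were positive and 7070 negative. Of these 9 members, 2 were 2-fold or more higher and 0 were 2-fold or more lower. BGLU27 entered the 9 through the asBoEMF2.1 array only, so its bound could scarcely be negative. Of the 5 members measured on both arrays, 1 was 2-fold or more higher, BGLU40, and 0 were lower by that much. The shares over all probe sets measured on both were 3.02% higher and 3.51% lower. As the members were chosen with earlier results of these data known, these counts are no result about the family. Over all 13357 probe sets measured on at least 1 array, 3.43% were 2-fold or more higher and 4.17% were 2-fold or more lower. The members' median log2 ratio was 0.19, against -0.03 over those probe sets. The 18 hybridization controls had a median log2 ratio of 0.19 and spread widely, from -0.19 to 0.56. When their median set the scale instead, every log2 ratio was 0.19 lower. The members' median was then -0.01, that of BGLU16, and BGLU40 stood at 0.89, which left 1 member past 2-fold. All probe sets split into 247 higher and 998 lower, against 458 higher and 557 lower with the deposited scaling.

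**Figure D1:**
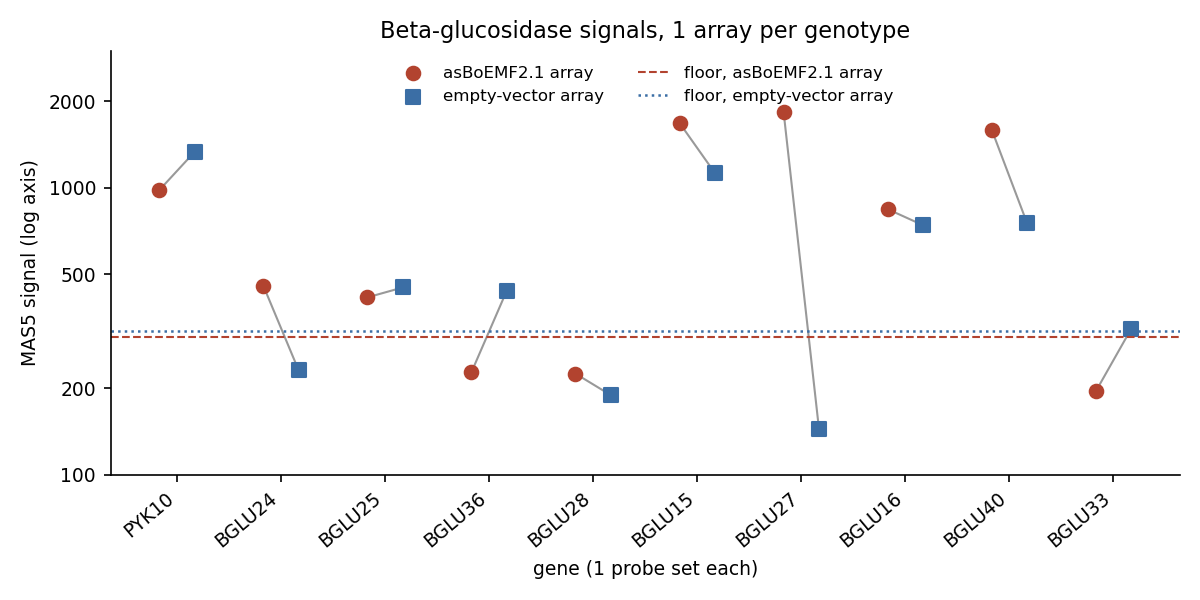
MAS5 signal (log axis) of the 10 beta-glucosidase genes, 1 probe set each, with the asBoEMF2.1 array as circles, the empty-vector array as squares, and the floor of each array as a horizontal line. BGLU27 lies at 1835.2 on the asBoEMF2.1 array and at 144.1 on the empty-vector array, on either side of the floor, and BGLU28 lies below the floor on both arrays.

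PYK10 (probe set 259009_at) had a signal of 980.0 on the asBoEMF2.1 array and 1333.1 on the empty-vector array. Both signals were well clear of the floor, at 3.24 times its value on the asBoEMF2.1 array and 4.20 times on the empty-vector array. Its log2 ratio of -0.44 was negative under all 8 alternative scalings and floors, between -0.64 and -0.41. The floor changes among these left it at -0.44 by construction, since both signals were above every floor. A ratio as low or lower was found for 19.7% of the 9382 probe sets measured on both arrays, so PYK10 lay inside the bulk of the array. Whole seedlings were sampled, and fewer cells of a type cannot be told apart from less RNA per cell.

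Among genes tied to ER bodies or to the PYK10 complex, NAI1 and JAL34 were 2-fold or more lower in asBoEMF2.1 seedlings. A list of 25 such genes had 7 named on the array, of which 4 were measured, 3 with a negative and 1 with a positive ratio. They are called ER body genes for short, though not all of their products lie in ER bodies. Of these 4, 2 were 2-fold or more lower and 0 were higher by that much, against 4.17% lower over all measured probe sets. The median was -0.95, against -0.03 over those probe sets. JAL34 was over the floor on the empty-vector array only, so its bound could not be positive. Of the 3 measured on both arrays, only NAI1 was past 2-fold. NAI1, the bHLH transcription factor that Arabidopsis needs for ER bodies and for PYK10 expression, had 982.9 on the asBoEMF2.1 array and 2225.5 on the empty-vector array. That is a log2 ratio of -1.18, which stayed beyond 2-fold under all 8 alternative scalings and floors (-1.37 to -1.11). Floor changes could not alter it, as both signals were above every floor. A ratio as low was found for 1.85% of probe sets measured on both arrays.

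JAL34, a jacalin-related lectin found in the PYK10 complex of damaged Arabidopsis roots, had 235.4 on the asBoEMF2.1 array and 722.7 on the empty-vector array. It was at least 2.39-fold lower. JAL33, a lectin of the same complex, had 405.5 on the asBoEMF2.1 array and 665.6 on the empty-vector array, a log2 ratio of -0.71. The gene numbers of these lectins in the annotation, 820893 and 820894, follow each other, and as values of related genes they may not be independent. With the floor at the 75th percentile, both lectins had bounds near 0, at -0.10 for JAL33 and -0.22 for JAL34.

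NAI2, a structural protein of ER bodies, went the other way. Its signal was 771.1 on the asBoEMF2.1 array and 625.2 on the empty-vector array, a log2 ratio of 0.30, or 0.11 with scaling to the hybridization controls. The lectin genes JAL22 (asBoEMF2.1 119.2, empty vector 265.2) and JAL23 (asBoEMF2.1 196.8, empty vector 78.8) were below the floor on both arrays, as was the glucosidase gene BGLU19 (asBoEMF2.1 148.1, empty vector 75.9). Of the 4 measured ER body genes, NAI1, JAL33 and JAL34 thus had negative ratios and NAI2 a positive one, and JAL33 and NAI2 were short of 2-fold.

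**Figure D2:**
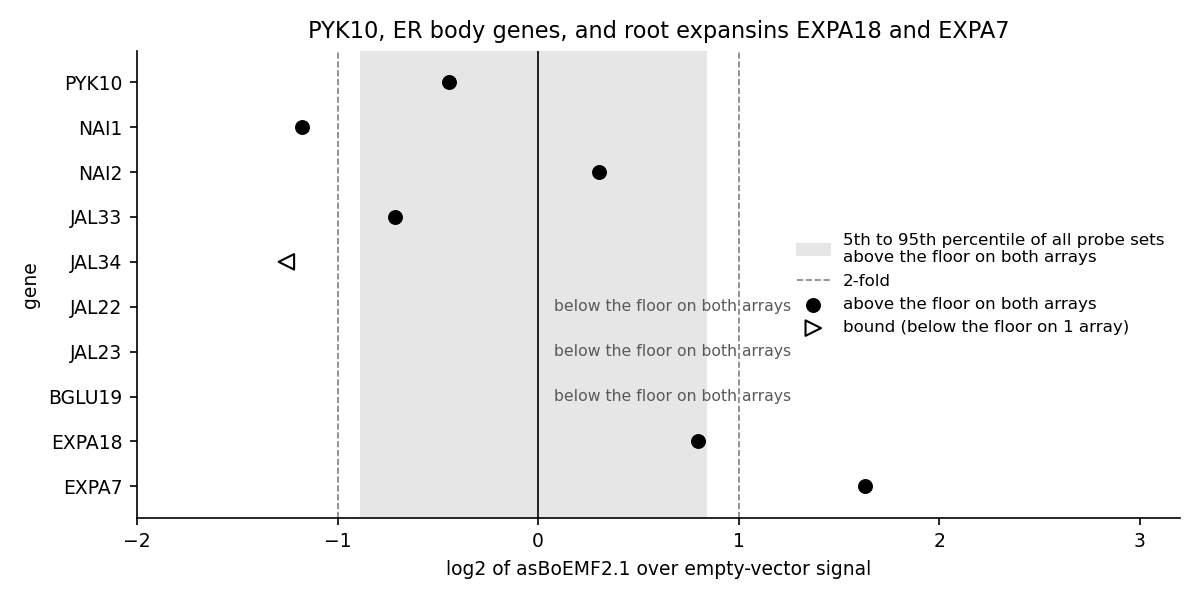
Log2 ratio of asBoEMF2.1 over empty-vector signal for PYK10, 7 genes tied to ER bodies or the PYK10 complex, and the root expansins EXPA18 and EXPA7. Filled points were measured on both arrays, open triangles are bounds, dashed lines mark 2-fold, and grey spans the 5th to 95th percentile of all probe sets measured on both arrays (-0.88 to 0.84); NAI1 and JAL34 lie beyond 2-fold on the left and EXPA7 on the right.

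Since PYK10 is a root gene, the tissue markers are given beside it. Of 18 root and root hair markers, 2 were named on the array, both higher in asBoEMF2.1 seedlings: EXPA7, a root hair expansin, with 1158.2 on the asBoEMF2.1 array and 374.7 on the empty-vector array, and EXPA18, another, with 1959.0 on the asBoEMF2.1 array and 1127.5 on the empty-vector array. Their summed signal was 3117.2 on the asBoEMF2.1 array and 1502.2 on the empty-vector array. Of 10 leaf and shoot markers, 6 were measured, 2 of them higher and 4 lower, with 1 of them 2-fold or more lower. PSAN stood at -1.52, PORB at -0.96, PSAE-1 at -0.82, LHCB4.1 at -0.05, PRK at 0.14 and RCA at 0.64, and PRK turned to -0.05 with scaling to the hybridization controls. Their summed signal was 30821.2 on the asBoEMF2.1 array and 43313.1 on the empty-vector array, and no marker of either list was at 0. Such a sum adds unlike probe sets and follows the brightest. PSAN alone had 4622.5 on the asBoEMF2.1 array and 13222.1 on the empty-vector array, while RCA and PRK were higher in asBoEMF2.1 seedlings. PYK10 thus had the opposite sign to the root hair expansins, and the part of tissue make-up in its ratio was not tested.

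BGLU24 and BGLU25 group with PYK10 by sequence in Arabidopsis, among glucosidases that mostly carry a signal for retention in the endoplasmic reticulum. BGLU24 (245955_at) had 455.2 on the asBoEMF2.1 array and 230.6 on the empty-vector array, where it was below the floor. It was at least 1.43-fold higher, and the log2 ratio was 0.98 without a floor. BGLU25 (259173_at) had 414.5 on the asBoEMF2.1 array and 448.8 on the empty-vector array, a log2 ratio of -0.11. Both signals were within 1.5 times the floor, and the ratio stood between -0.31 and -0.03 over its 7 alternatives. In this group of 3 genes no ratio or bound reached 2-fold, and whether the genes differ from each other was not tested.

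BGLU36 and BGLU28 are tied to glucosinolates. BGLU36 (260513_at), which falls by sequence among the myrosinases, had 227.3 on the asBoEMF2.1 array, below the floor, and 437.7 on the empty-vector array. It was at least 1.45-fold lower, with log2 ratios from -0.95 without a floor to -0.45 after loess. BGLU28 (267389_at), which Arabidopsis induces under sulfur shortage and which releases sulfur from glucosinolates, had 224.7 on the asBoEMF2.1 array and 189.1 on the empty-vector array. It was the 1 member below the floor on both arrays, and no difference was detectable.

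The lists of related glucosinolate and sulfur genes held no ratio or bound of 2-fold. Of 59 genes of glucosinolate synthesis and breakdown, 5 were named and 3 measured. All 3 were higher in asBoEMF2.1 seedlings, where all measured probe sets had 6284 positive and 7070 negative ratios. GTR2, a glucosinolate transporter, had a log2 ratio of 0.82 (asBoEMF2.1 643.9, empty vector 365.4). UGT74B1, which adds the glucose of glucosinolates, stood at 0.43 (asBoEMF2.1 917.4, empty vector 682.1). BCAT4, which starts side-chain elongation from methionine, was at least 1.64-fold higher (asBoEMF2.1 520.7, empty vector 273.4). BCAT4 was over the floor on the asBoEMF2.1 array only, so its bound could scarcely be negative. GTR1 (asBoEMF2.1 247.3, empty vector 190.6) and GSTU20 (asBoEMF2.1 185.6, empty vector 92.0) were below the floor on both. Of 24 sulfur shortage genes, 2 were named, the ATP sulfurylases APS3 at 0.09 (asBoEMF2.1 5268.7, empty vector 4956.6) and APS4 at 0.17 (asBoEMF2.1 5020.9, empty vector 4470.8). Both turned slightly negative with scaling to the hybridization controls, to -0.11 and -0.03.

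BGLU15 (267388_at), which in Arabidopsis removes glucose from flavonol bisglycosides, had 1680.1 on the asBoEMF2.1 array and 1124.4 on the empty-vector array. The log2 ratio of 0.58, or 1.49-fold, stayed positive under every alternative scaling and floor (0.39 to 0.60). With both signals above every floor, only the scalings and the pseudocount could change it. A ratio as high was found for 11.7% of probe sets measured on both arrays. Of the 30 genes of flavonol and coumarin glycosides, 11 were named and 5 measured, with a median of -0.08 and 0 past 2-fold. UGT78D2, which adds glucose to flavonols, had a bound of -0.14 (225.8 on the asBoEMF2.1 array, below the floor, and 333.8 on the empty-vector array). BGLU42 and UGT71C4 (asBoEMF2.1 440.1, empty vector 466.4) both stood at -0.08. DFR, an enzyme of anthocyanin synthesis, stood at -0.10 (asBoEMF2.1 338.3, empty vector 363.4). UGT72E2, which glucosylates lignin precursors, stood at 0.02 (asBoEMF2.1 1659.2, empty vector 1635.7), turning to -0.17 with scaling to the hybridization controls.

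BGLU27 (251456_at) had the highest ratio or bound of the members. Its signal was 1835.2 on the asBoEMF2.1 array, 6.06 times the floor, and 144.1 on the empty-vector array, 0.454 times the floor. The bound was 5.78-fold, a log2 ratio of at least 2.53. Of the 3975 probe sets with a bound, 4.4% were 2-fold or more higher, and 4 had a bound as high as BGLU27, itself included. The value depends on the floor: on the log2 scale the bound was 1.53 for a 75th percentile floor, while with a 25th percentile floor both signals lay above it and the plain ratio was 3.67. It was past 2-fold under all 8 alternative scalings and floors.

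BGLU16 (251427_at) has the gene number 825183 in the annotation, next to 825182 for BGLU27. It had 841.4 on the asBoEMF2.1 array and 739.7 on the empty-vector array, a log2 ratio of 0.19 that became -0.01 with scaling to the hybridization controls. The ratio of BGLU16 was within the SD of 0.44 for a single ratio, estimated from 31 genes with 2 probe sets each. That SD covers noise between probe sets on these arrays and no variation between plants. BGLU15 and BGLU28 are also neighbours in the numbering, at 819052 and 819053, and BGLU28 has no ratio. The next number, 819054, is BGLU29, which was also below the floor on both arrays (asBoEMF2.1 205.4, empty vector 170.1).

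BGLU40 (261016_at) had 1591.6 on the asBoEMF2.1 array and 751.9 on the empty-vector array, both above the floor. The ratio was 2.12-fold, or 1.08 on the log2 scale. A ratio as high was found for 2.34% of the 9382 probe sets measured on both arrays, of which 3.02% were 2-fold or more higher. Among those with a mean signal between 709 and 1198, the range that holds BGLU40, 3.62% were 2-fold or more higher. BGLU40 lay just past the threshold and dropped under it with a pseudocount (0.99) and with scaling to the hybridization controls (0.89), while centring, quantile and loess normalization gave 1.11, 1.06 and 1.08.

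BGLU33 (267645_at) had 194.9 on the asBoEMF2.1 array, below the floor, and 321.9 on the empty-vector array, just over it. The bound was close to 0, at -0.09, and no difference of 2-fold was detectable with this floor. Without a floor the log2 ratio was -0.72.

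**Figure D3:**
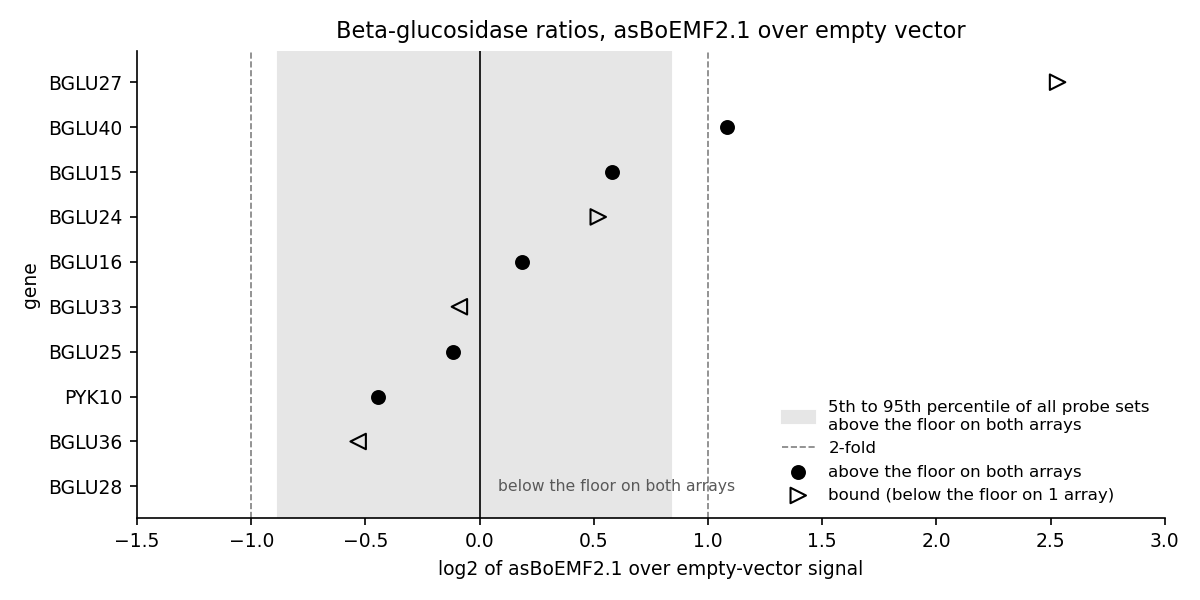
Log2 ratio of asBoEMF2.1 over empty-vector signal for the 10 beta-glucosidase genes, ordered by ratio. Filled points were measured on both arrays, open triangles are bounds, dashed lines mark 2-fold, and grey spans the 5th to 95th percentile of all probe sets measured on both arrays (-0.88 to 0.84). BGLU27 and BGLU40 lie beyond both, and the points of the other measured members lie within the grey. For BGLU24, BGLU33 and BGLU36 these are bounds, which do not place the gene there. Without a floor they stood at 0.98, -0.72 and -0.95.

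The annotation names 12 further family 1 glucosidase genes, of which 3 were measured. BGLU47, from a group that holds glucosidases of lignin precursors, had 569.0 on the asBoEMF2.1 array and 342.6 on the empty-vector array, a log2 ratio of 0.73. BGLU44 had 188.1 on the asBoEMF2.1 array, below the floor, and 501.0 on the empty-vector array, and was at least 1.66-fold lower. BGLU42, which acts in the iron shortage response of Arabidopsis roots, had 928.2 on the asBoEMF2.1 array and 984.0 on the empty-vector array, a log2 ratio of -0.08. The other 9 were below the floor on both arrays, as was a probe set shared by BGLU21 and BGLU22 (asBoEMF2.1 242.8, empty vector 92.8). Measured were thus 9 of the 10 members and 3 of the 12 further genes, against 58.7% of all non-control probe sets. The members were chosen with earlier results of these data known, so their share is no result about the family. BGLU24 and BGLU27 count as measured through the asBoEMF2.1 array only, and BGLU33 and BGLU36 through the empty-vector array only. That leaves 5 members measured on both arrays. Over all 22 genes, 12 were measured, 6 with a positive and 6 with a negative ratio, and the median was 0.05.

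The arrays were on a common scale, with trimmed means of 500.04 (asBoEMF2.1) and 500.03 (empty vector), and their log2 signals correlated with Pearson's r = 0.902 across the 9382 probe sets measured on both, which are not replicates. Control probe sets for transcript ends differed between arrays: in 4 of 5 pairs for actin, ubiquitin and GAPDH the 5′ ratio exceeded the 3′ ratio, and the difference ran between -0.34 and 0.62 with a median of 0.44. Actin and ubiquitin each gave more than 1 pair, so the pairs are not independent, and the value of -0.34 belonged to GAPDH. The part of these end differences in the members' ratios was not tested. The annotation assigns 0 probe sets to EMF2, so the level of the targeted gene was not analysed here and the labels were not checked by it.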

How the data were processed

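Total RNA was extracted with Trizol and 10 µg was labelled with biotin by the Affymetrix protocol, per the labels' protocols. The deposited values are intensity values, 1 linear signal per probe set and array. The signals come from MAS5, per the submitters' processing notes, and its version is not given in the sources used here. Groups were taken from the sample titles. The genotype label of the antisense sample omits the word antisense, and title and source name were followed.

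Genes were named from a platform annotation that gives 1 gene for 13513 probe sets, several for 503 and none for 8794, of which 64 are array controls. Only probe sets with 1 gene were used. Symbols of 5 related gene lists and 2 marker lists were matched in full, without regard to upper or lower case, and the brightest probe set was used for a gene with several. The symbol CHI was left out, as it is shared with a chitinase gene. All members are named, every matched gene of a list with up to 8 matches, and in longer lists those past 2-fold and up to 4 with the widest ratios each way. The members and lists were chosen with earlier results of these data known. Floors, ratios and counts were computed with Python 3.11.15, numpy 2.4.6, pandas 2.3.3 and statsmodels 0.14.6. The ratio step was checked on simulated data, for large changes of probe sets well above the floor. Bounds and changes near 2-fold were not checked in this way. No sequences or coordinates were used here.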

Additional observations from a re-analysis of the deposited data

How the results depend on the processing

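No paired analysis was possible because there is a single sample of each genotype, and for that reason none could be left out. A planned switch to a gene's other probe sets was not run, as each member has 1. Over 13 named genes and the 8 other scalings and floors, 100 ratios could be taken. Of these, 89 moved by less than the 0.44 SD between probe sets of a gene, 11 moved by more, all with another floor or a pseudocount, and 0 of the called ones changed sign. Centring on the median ratio (-0.02) and hybridization-control scaling (0.19) shift all ratios equally by less than that SD, so neither could move one. Floor changes cannot move genes above every floor. The 89 is thus partly fixed by construction and is no measure of stability. Among uncalled ratios, that of BGLU16 turned to -0.01 with hybridization-control scaling. The members' median, 0.19, ranged from -0.01 with that scaling to 0.58 with the floor at the 75th percentile. With hybridization-control scaling the members past 2-fold higher went to 1, and all probe sets, 458 higher and 557 lower, became 247 and 998. Floor choices act by construction, since they set which dim probe sets enter. The floor at the 25th percentile gave 0 members below it on both arrays, 1 ER body gene higher, 1 gene of the 5 related lists higher and 6 lower, and 2092 probe sets higher and 2435 lower. The floor at the 75th percentile gave 5 members below it, 1 ER body gene lower, 1 gene of the related lists lower, and 167 and 158 probe sets. No floor gave 0 members below it, 1 ER body gene higher, 3 related genes higher and 11 lower, and 3241 and 3691 probe sets. A pseudocount gave 1 member higher, 0 below a floor, 6 related genes lower, and 1554 and 1775 probe sets. At 1.5-fold there were 3 related genes higher and 4 lower, and 1620 and 1946 probe sets. At 3-fold there was 1 member higher, 0 ER body genes lower, 0 related genes lower, and 70 and 67 probe sets. Signals close to the floor (BGLU24, BGLU25, BGLU33, BGLU36) limit what these arrays can show.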
